A study of Mus musculus with 16 samples.

Results

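NRF2, the transcription factor encoded by Nfe2l2, drives genes that detoxify electrophiles and keep thiols reduced. In unstressed cells the adaptor KEAP1 hands NRF2 to a cullin ubiquitin ligase, and electrophiles or oxidants that modify cysteines of KEAP1 let newly made NRF2 reach the nucleus. There it pairs with small MAF proteins on antioxidant response elements, and in heart muscle this response is known for limiting oxidative injury. The genes described here are Nfe2l2, Keap1 and 8 targets, namely Nqo1, Hmox1, Gclc, Gclm, Txnrd1, Srxn1, Gsta3 and Gstm1. They were taken by symbol from a table of 33399 genes, and all 10 were among the 16400 genes with enough counts to be tested. The list was drawn up with results of CKD against control already known, so the members' values in that comparison are a description, and nothing is read from how many of them passed.

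Total RNA of ventricles was sequenced from 16 wild-type C57BL/6 mice, 4 each of male CKD, female CKD, male control and female control. Chronic kidney disease (CKD) was induced from 8 weeks of age with standard chow carrying 0.25% adenine, given in alternation with plain standard chow over 6 weeks. The aim was a median blood urea nitrogen, a marker of lost kidney filtration, of 40 to 70 mg/dL. Controls ate standard chow for 6 weeks.

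Libraries held between 10203707 and 13626039 read counts. All 9 ventricular cardiomyocyte markers were measured, and their summed level was 35059 to 51469 CPM, the counts scaled to library size in CKD ventricles and 31121 to 42551 CPM in controls. The summed level of the 4 atrial markers was 149 to 729 CPM with CKD and 197 to 866 CPM in controls. Male CKD mouse 4 stood apart from the rest. The 9 fibroblast markers summed to 210 CPM in it, against 693 to 1203 CPM in the other CKD mice and 870 to 1174 CPM in controls. Its endothelial (726 CPM), pericyte and smooth muscle (731 CPM) and macrophage (186 CPM) sums were also the lowest of the 16 libraries, and its cardiomyocyte sum was the highest. Without this mouse the endothelial sums were 923 to 1594 CPM with CKD, against 1153 to 1476 CPM in controls. Pericyte and smooth muscle sums were then 1361 to 1739 against 1269 to 1751 CPM, and macrophage sums 279 to 375 against 297 to 422 CPM. The marker fold changes of CKD against control are over both sexes and include male CKD 4. All 9 fibroblast markers had negative ones (median -0.44 log2 units), as had all 8 endothelial markers (median -0.35) and all 5 erythroid markers (median -0.36). So had 8 of 9 pericyte and smooth muscle markers and 7 of 8 macrophage markers, while 7 of 9 ventricular cardiomyocyte markers were positive (median 0.17), and 0 of these markers passed. In whole tissue, fewer cells of a type and less RNA per cell cannot be told apart. The rank correlation across genes between a library's deviation and the GC content of the transcripts ran from -0.502 to 0.148 in females and from 0.00685 to 0.560 in males.

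Levels of the members were compared per kilobase of exon. The length takes in every annotated exon of a gene, which can exceed that of the transcripts present, so the order depends on it. In CKD ventricles Gstm1, a cytosolic glutathione transferase, stood at 88.8 ± 9.62 CPM per kb and Nqo1, a quinone reductase that uses NADPH, at 74.6 ± 10.6 (SD, n = 8). In controls they stood at 83.0 ± 22.0 and 48.8 ± 6.32 CPM per kb (SD, n = 8). Nfe2l2 followed at 17.0 ± 2.31 CPM per kb with CKD and 17.9 ± 2.67 in controls. Txnrd1, Srxn1 and Keap1 came next, between 8.64 and 9.05 CPM per kb on average with CKD and between 8.73 and 9.20 in controls, and differed from each other by less than their SDs. Gclc lay at 4.96 ± 0.402 with CKD and 4.32 ± 0.372 in controls. Hmox1 and Gclm, at 3.66 ± 1.53 and 3.41 ± 0.740 CPM per kb with CKD, again differed by less than their SDs. Gsta3 was the lowest member in both arms on this scale, at 2.91 ± 0.596 with CKD and 2.06 ± 0.370 in controls. In CPM, without exon length, Hmox1 was the lowest, with a mean of 6.41 CPM with CKD and 5.75 CPM in controls. The Gsta3 means were 12.6 and 8.96 CPM.

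**Figure D1:**
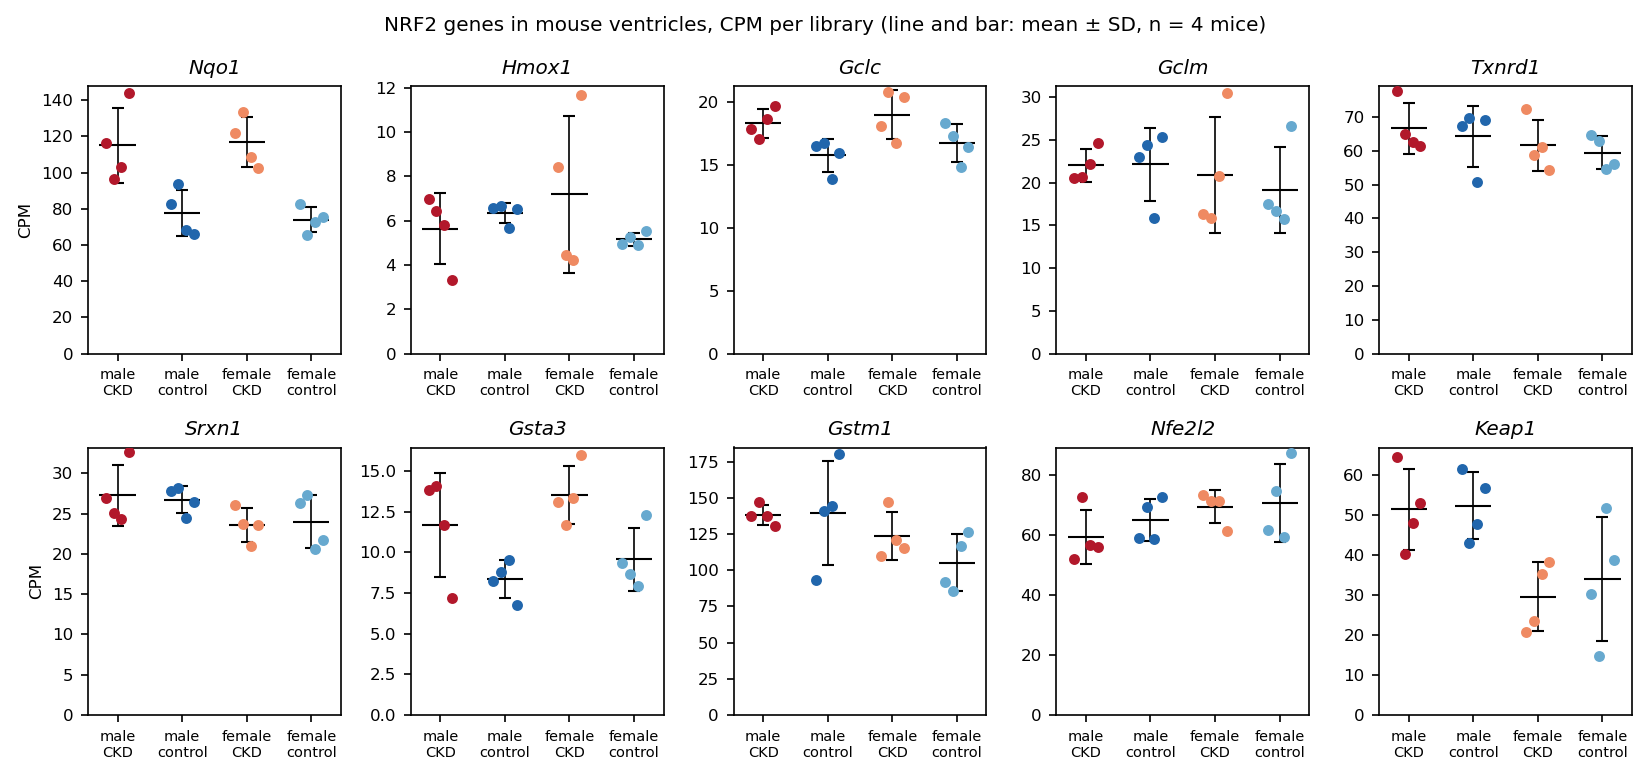
Each panel plots the CPM of 1 gene (y axis, from 0) in the 16 libraries by group (x axis), with points for mice and lines and bars for mean ± SD (n = 4). The Nqo1 points of all 8 CKD mice lie at 96.6 CPM or more and those of all controls at 93.6 CPM or less, while the arms overlap for the other 9 genes.

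Nqo1 was higher in CKD ventricles than in controls of either sex. Male CKD mice had 116, 96.6, 103 and 144 CPM, against 82.4, 93.6, 68.3 and 66.0 CPM in male controls. Female CKD mice had 122, 133, 109 and 103 CPM, against 82.3, 65.4, 72.4 and 75.4 CPM in female controls. Every CKD mouse was above every control of either sex, which was true of 0.159% of the 16400 genes tested. The mean was 116 ± 16.4 CPM with CKD and 75.7 ± 9.82 CPM in controls (SD, n = 8 each), a 1.53-fold difference (log2 fold change 0.61, SE 0.10, 95% interval 0.40 to 0.83). Counts behind these values were 1110 to 1588 per CKD library and 700 to 1298 per control library.

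Nqo1 was the 1 member past an adjusted p of 0.05 in edgeR, where 0.0854% of all tested genes passed in either direction. The log2 fold change was 0.56 among the 10 libraries whose title code number is 6 and 0.70 among the other 6, a grouping with no stated meaning, and in neither subset did Nqo1 pass. It also missed the threshold with any 1 of male CKD 1, female CKD 1, 2 or 3, male control 3 or 4, or female control 3 or 4 left out. With each of the 16 libraries left out in turn its log2 fold change ran from 0.56 to 0.64.

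The highest Nqo1 value belonged to male CKD 4, the library low in fibroblast markers. Without it the log2 fold change was 0.56, and Nqo1 still passed. The part of these cell type markers in the members' values was not tested. On GRCm38 the gene (ENSMUSG00000003849.8) covers chromosome 8 from 107388225 to 107403206 on the minus strand.

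Gsta3, a glutathione transferase of the alpha class that conjugates lipid peroxidation products, had the next largest difference. Male CKD mice had 13.9, 14.1, 11.7 and 7.20 CPM, against 8.27, 8.80, 9.56 and 6.79 CPM in male controls. Female CKD mice had 13.1, 11.7, 13.3 and 16 CPM, against 9.35, 8.67, 7.95 and 12.3 CPM in female controls. Of the 8 CKD mice 7 lay above the control mean and 5 above every control, and male CKD 4 was the exception below the mean. The log2 fold change was 0.50 (SE 0.14, 95% interval 0.20 to 0.79), a 1.41-fold difference that did not pass in edgeR. DESeq2 and limma-voom, which called 398 and 199 genes in all, both included Gsta3. Without male CKD 4 its log2 fold change was 0.58. Gsta3 (ENSMUSG00000025934.15) lies on chromosome 1 from 21240589 to 21265661.

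Promoter windows are shown for Nqo1 and Gsta3, the pair with the largest differences, to set the letters upstream of them side by side. The windows reach from 250 bases before to 50 bases after a RefSeq gene start (GRCm38.p6), are written 5′ to 3′ on the gene's strand, and carry in capitals any match to TGACNNNGC, a core of the antioxidant response element, on either strand. Nqo1 is chr8:107403156-107403455 (minus strand) and Gsta3 is chr1:21240335-21240634 (plus strand).
Nqo1: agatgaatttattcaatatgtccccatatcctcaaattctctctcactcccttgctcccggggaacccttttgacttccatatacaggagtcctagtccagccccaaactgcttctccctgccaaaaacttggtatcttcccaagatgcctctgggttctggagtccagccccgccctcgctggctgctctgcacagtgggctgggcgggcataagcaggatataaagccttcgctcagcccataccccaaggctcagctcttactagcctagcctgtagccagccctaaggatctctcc
Gsta3: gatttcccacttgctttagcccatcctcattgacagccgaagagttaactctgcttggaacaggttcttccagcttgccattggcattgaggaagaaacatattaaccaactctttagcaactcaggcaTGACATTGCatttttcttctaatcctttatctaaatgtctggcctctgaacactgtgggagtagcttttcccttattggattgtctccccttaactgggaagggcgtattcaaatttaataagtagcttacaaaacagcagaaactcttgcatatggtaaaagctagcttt

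The table of windows matched 8 members, with 11 windows, and 5 members had a match, at position -121 from the gene start for Gsta3. Among all 32851 windows of the same length 12.4% held a match. That percentage counts windows, while the 5 counts members with a match in any of their windows, so the values are not compared. The members were listed as NRF2 and its inhibitor and targets, and nothing is read from their share. The Nqo1 window held no match, which says only that these letters are not in this stretch. The other matches are shown with 15 bases or fewer on each side, to compare their letters with those of Gsta3. They are chr3:122245408-122245446 for Gclm, chr10:82859099-82859137 for Txnrd1 (1 of its 3 windows) and chr2:152105537-152105573 for Srxn1, all on the plus strand, and chr2:75704880-75704913 on the minus strand for Nfe2l2.
Gclm: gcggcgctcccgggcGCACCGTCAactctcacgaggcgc
Txnrd1: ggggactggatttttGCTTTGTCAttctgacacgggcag
Srxn1: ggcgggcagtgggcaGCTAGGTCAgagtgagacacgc
Nfe2l2: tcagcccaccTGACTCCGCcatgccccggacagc
In Gclm, Txnrd1 and Srxn1 the match is on the other strand. A match is a description of letters, with a share among members that rests on 8 genes.

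Gclc and Gclm encode the catalytic and modifier subunits of glutamate-cysteine ligase, the rate-limiting enzyme of glutathione synthesis. Gclc had 17.9, 17.0, 18.7 and 19.7 CPM in male CKD mice, against 16.5, 16.7, 13.9 and 15.9 CPM in male controls. Females had 18.1, 20.8, 16.7 and 20.4 CPM with CKD, against 18.4, 17.3, 14.8 and 16.5 CPM in controls. All 8 CKD mice were above the control mean. In males the groups did not overlap, as was the case upwards for 1.63% of tested genes, and in females they did. The log2 fold change of Gclc was 0.20 (SE 0.08, 95% interval 0.02 to 0.38), a 1.15-fold difference that did not pass. Gclm had 15.9 to 30.5 CPM (median 20.8) with CKD and 15.8 to 26.7 CPM (median 20.2) in controls, with a log2 fold change of 0.06 (SE 0.15). The 3 highest Gclm values of the 16 libraries were 30.5 in female CKD 4, 26.7 in female control 4 and 25.4 CPM in male control 4, which are the 3 libraries with title code number 2. The part of this grouping in the Gclm values was not tested. Exons of Gm17494 on the opposite strand overlap 4.71% of the Gclm exon bases. Of the 50-base words of Gclm transcripts 4.58% also occur in other genes, Ppia among them, and the effect on its counts is not known. Gclc (ENSMUSG00000032350.9) lies on chromosome 9 from 77754535 to 77794485 and Gclm (ENSMUSG00000028124.15) on chromosome 3 from 122245557 to 122270732.

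Hmox1, the inducible heme oxygenase that opens the heme ring to biliverdin, iron and carbon monoxide, was the member whose CKD mice differed most among themselves. Male CKD mice had 6.96, 6.44, 5.81 and 3.32 CPM, against 6.56, 6.63, 5.65 and 6.50 CPM in male controls. Female CKD mice had 8.41, 4.44, 4.22 and 11.7 CPM, against 4.93, 5.26, 4.92 and 5.52 CPM in female controls. Of the 8 CKD mice 3 were above every control and 3 below every control. The coefficient of variation was 41.9% with CKD and 12.6% in controls. The log2 fold change was 0.15 (SE 0.21, 95% interval -0.29 to 0.59), and without female CKD 4 it was -0.02. Counts were low, 35 to 126 per CKD library and 56 to 92 per control library. Hmox1 (ENSMUSG00000005413.8) lies on chromosome 8 from 75093621 to 75100589.

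Transcripts of the thioredoxin and peroxiredoxin recycling enzymes Txnrd1 and Srxn1 showed no difference past the threshold. Txnrd1, the cytosolic thioredoxin reductase, had 54.4 to 77.8 CPM (median 61.9) with CKD and 50.7 to 69.8 CPM (median 63.7) in controls, with a log2 fold change of 0.05 (SE 0.09, 95% interval -0.14 to 0.24). Srxn1, the sulfiredoxin that restores overoxidised peroxiredoxins, had 20.97 to 32.6 CPM (median 24.7) with CKD and 20.6 to 28.2 CPM (median 26.4) in controls. Its log2 fold change was 0.00 (SE 0.09, 95% interval -0.19 to 0.19), and its highest value, 32.6 CPM, was in male CKD 4. The groups overlapped for both genes. Txnrd1 (ENSMUSG00000020250.10) lies on chromosome 10 from 82833951 to 82897712 and Srxn1 (ENSMUSG00000032802.8) on chromosome 2 from 152105516 to 152111376.

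Gstm1 had 110 to 147 CPM (median 134) with CKD and 85.3 to 180 CPM (median 122) in controls, with a log2 fold change of 0.11 (SE 0.12, 95% interval -0.15 to 0.37). Controls were the more variable arm for this gene, with a coefficient of variation of 10.8% with CKD and 26.5% in controls. Among libraries with title code number 6 its log2 fold change was 0.31 and among the others -0.20, neither past the threshold. Of the 50-base words of Gstm1 transcripts 18.9% also occur in other genes, Gstm2 and Gstm3 among them. This is a share of sequence, and the size of its effect on the counts is not known. Gstm1 (ENSMUSG00000058135.12) covers chromosome 3 from 108012255 to 108017973 on the minus strand.

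The transcripts of the factor and of its inhibitor showed no difference past the threshold between arms. Nfe2l2 had 52.0 to 73.4 CPM (median 66.3) with CKD and 58.7 to 87.3 CPM (median 65.3) in controls, with a log2 fold change of -0.08 (SE 0.10, 95% interval -0.28 to 0.13). Keap1 had 20.9 to 64.5 CPM (median 39.4) with CKD and 14.8 to 61.7 CPM (median 45.5) in controls, with a log2 fold change of -0.11 (SE 0.20, 95% interval -0.53 to 0.31). These are transcript levels, and the amount or location of the NRF2 protein was not measured. Nfe2l2 (ENSMUSG00000015839.6) lies on chromosome 2 from 75675513 to 75704641 and Keap1 (ENSMUSG00000003308.15) on chromosome 9 from 21229730 to 21239361, both on the minus strand. Exons of Gm16754 on the opposite strand overlap 10.9% of the Keap1 exon bases, and no source used here says whether counting used strand.

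**Figure D2:**
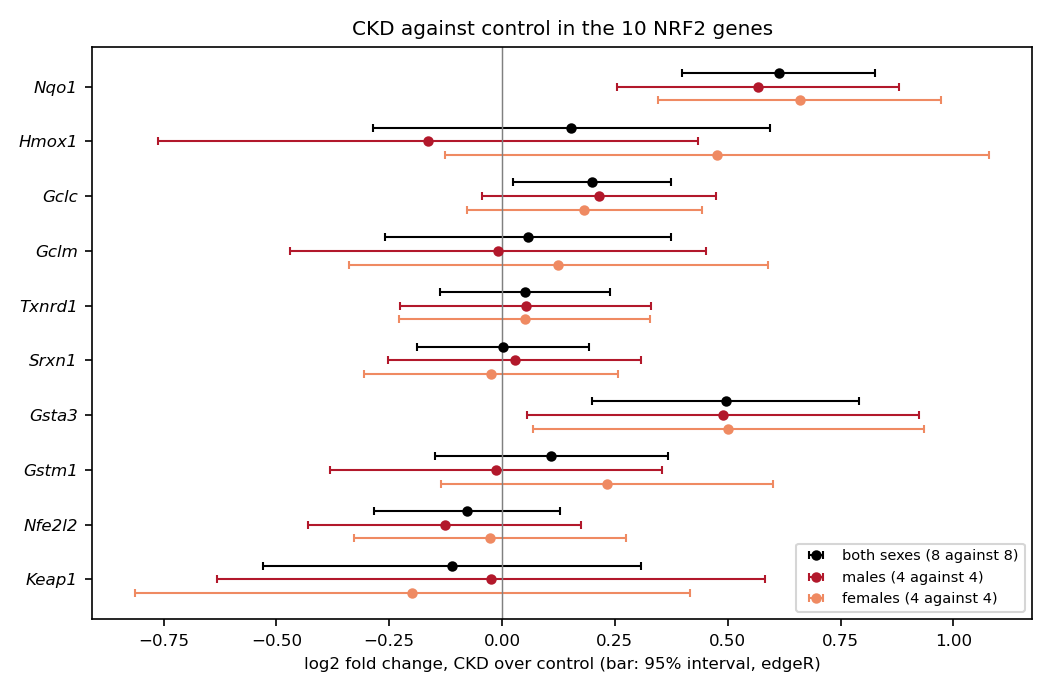
Points are log2 fold changes of CKD over control (x axis) of the 10 genes (y axis) and bars their 95% intervals from edgeR, for both sexes together, males and females. The Nqo1 and Gsta3 intervals lie above 0 in all 3 estimates, though neither gene passed within a sex after adjustment, and the Gclc interval in the estimate over both sexes, at 0.02 to 0.38.

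Within a sex, 0 of the 10 members passed in CKD against control in edgeR, where 0% of all tested genes did in males and 0.0549% in females. Whether the CKD effect differed between the sexes is a contrast that the choice of members did not use. In edgeR 0 of the 10 members and 0% of all tested genes passed, with 276 genes (1.68%) and 0 members at an unadjusted p under 0.05. DESeq2 and limma-voom called 0 genes as well. For Nqo1 the CKD effect was 0.66 (SE 0.15) in females and 0.57 (SE 0.15) in males on the log2 scale, and their difference 0.09 had a 95% interval of -0.35 to 0.53. Gsta3 had 0.50 (SE 0.20) in females and 0.49 (SE 0.21) in males, with a difference of 0.01 and a 95% interval of -0.60 to 0.63. The largest difference was that of Hmox1, at 0.48 (SE 0.29) in females and -0.16 (SE 0.28) in males, a difference of 0.64 (SE 0.40, 95% interval -0.21 to 1.49, edgeR adjusted p = 1). The Nqo1 interval reaches 0.53, under its CKD effect in either sex, and the Gsta3 interval reaches past its own effects. Those effects were known when the list was drawn up and may be overstated, so comparing the intervals with them excludes no size of sex difference.

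On counts as deposited Keap1 had the largest sex difference among the members, with lower values in females. With the GC trend removed it was still lower in females, by a smaller amount. The parts of sex and of the GC trend in this difference were not tested. Female CKD mice had 20.9, 23.6, 35.4 and 38.4 CPM, against 64.5, 40.4, 48.0 and 53.1 CPM in male CKD mice, and the groups did not overlap, as was the case downwards for 6.96% of tested genes. Female controls had 30.3, 14.8, 51.8 and 38.9 CPM, against 61.7, 43.1, 47.9 and 56.9 CPM in male controls, with overlap. The log2 fold change of female over male was -0.80 (SE 0.29, 95% interval -1.41 to -0.18, edgeR adjusted p = 0.265) in CKD mice. In controls it was -0.63 (SE 0.29, 95% interval -1.24 to -0.01, edgeR adjusted p = 0.639). In edgeR 0.0427% of tested genes passed in CKD mice and 0.0366% in controls, and 0 members did. At an unadjusted p under 0.05 the members were Keap1 in CKD mice, where 15% of tested genes had such a p, and Keap1 and Gstm1 in controls, where 6.84% had. Limma-voom called Keap1 in CKD mice (adjusted p = 0.0431) along with 1554 genes in all.

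Keap1 transcripts had the highest GC content of the members, 59.4%, and Gsta3 transcripts the lowest, 43.3%. With the GC trend of each library removed, the Keap1 difference of female over male was -0.20 in CKD mice and -0.16 in controls. Gstm1, with 53.9% GC, had a female over male log2 fold change of -0.41 (SE 0.17, edgeR adjusted p = 0.639) in controls and -0.16 (SE 0.17) in CKD mice. It stood at -0.29 in controls and 0.01 in CKD mice with the trend removed. The other 8 members had female over male differences between -0.21 and 0.34 in CKD mice and between -0.30 and 0.19 in controls. Srxn1 changed sign, at -0.21 in CKD mice and -0.16 in controls on counts as deposited, and at 0.11 and 0.09 with the trend removed. With the trend removed the CKD effect of Nqo1 was 0.57 and that of Gsta3 0.44.

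**Figure D3:**
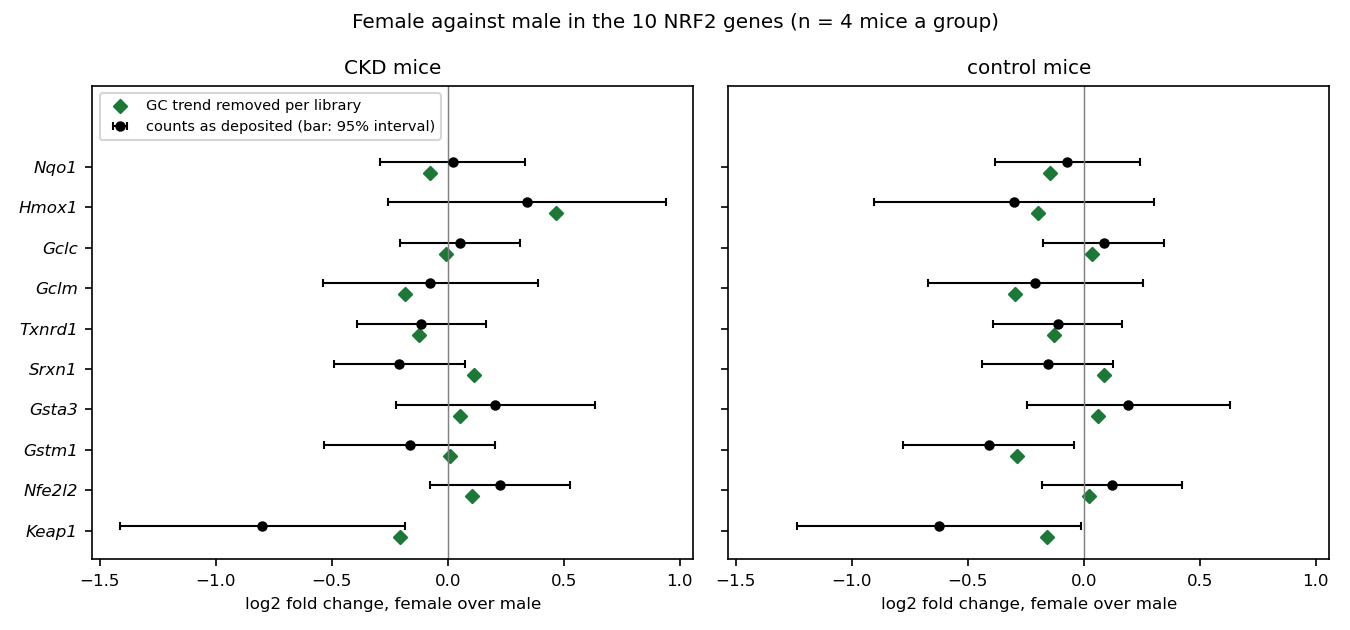
Black points and bars give log2 fold changes of female over male (x axis) with 95% intervals from edgeR for the 10 genes (y axis), in CKD mice (left) and control mice (right), and green diamonds the values with each library's GC trend removed. Keap1 lies at -0.80 and -0.63 in black, and at -0.20 and -0.16 in green.

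From mouse to mouse within a group the members did not vary together past the threshold. Of 45 pairs, 0 passed a permutation test of Pearson's r on log2 CPM after group means were removed (n = 16 libraries, adjusted over the 45 pairs), and 2 had an unadjusted p under 0.05. Gclc and Srxn1 had r = 0.67 (rho = 0.64, permutation p = 0.00959 for r and 0.0200 for rho, adjusted p = 0.306 and 0.450). Without the 2 libraries farthest from the median of Gclc, r was 0.58, and with the GC trend of each library removed it was 0.33. Hmox1 and Gsta3 had r = 0.62 (rho = 0.62, permutation p = 0.0136 and 0.0164, adjusted p = 0.306 and 0.450), and r was 0.39 without female CKD 4 and male CKD 4. Nqo1 had its highest r with Srxn1, at 0.53 (rho = 0.48, permutation p = 0.0515 and 0.0785, adjusted p = 0.580 and 0.602). Without male CKD 4 and male control 2 that r was 0.32. With Gclc, Nqo1 had r = 0.49 (rho = 0.47, permutation p = 0.0706 and 0.0887, adjusted p = 0.631 and 0.602) and r = 0.37 without male CKD 4 and male control 2.

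Genes whose log2 CPM was most like that of Nqo1 over all 16 libraries, arms included, were picked from 12647 other protein-coding genes. They were Tomm20, a receptor of mitochondrial protein import (Pearson r = 0.92), Cnbp, a nucleic acid binding protein (0.90), Kiz, a centrosomal protein (0.90), Rbm3, the cold-inducible RNA-binding protein (0.90), and Kcmf1, a ubiquitin ligase (0.90). These likenesses hold the difference between arms, since Nqo1 differed between them. Among the members Gclc came closest, at r = 0.74 and place 290 of 16400, and the other 8 lay between -0.23 (Nfe2l2) and 0.42 (Gsta3). Rbm3 averaged 152 ± 26.1 CPM with CKD and 80.7 ± 10.1 CPM in controls (SD, n = 8 each). Tomm20 averaged 151 ± 17.6 CPM with CKD and 123 ± 5.93 CPM in controls.

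Other genes of the pathway were read from 5 lists with 79 names, of which 71 were tested. In CKD against control 0 of the 71 passed in edgeR, where 0.0854% of all genes did. At an unadjusted p under 0.05 there were 7 higher and 2 lower genes, 12.7% of those tested, against 15.4% of all genes. Of the 71, 42 had positive and 29 negative fold changes, with a median of 0.06 log2 units against 0.00 over all genes. The members' own median was 0.08, with 8 positive and 2 negative.

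Among these 5 lists, conjugation, reduction and export enzymes had the highest median, 0.12, with 22 of 30 tested members positive and 0 past the threshold. Gstm2, a mu-class relative of Gstm1, averaged 149 ± 29.7 CPM with CKD and 107 ± 23.3 CPM in controls (SD, n = 8 each), with a log2 fold change of 0.49 (SE 0.13, edgeR adjusted p = 0.111), and DESeq2 called it. It shares 50-base words with Gstm1, so the limit on the Gstm1 counts holds for it too. Mgst1, a membrane-bound glutathione transferase, averaged 85.3 ± 14.7 CPM with CKD and 62.5 ± 12.2 CPM in controls, with 0.45 (SE 0.13, edgeR adjusted p = 0.129).

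In the glutathione and thioredoxin system 7 of 11 tested genes were positive (median 0.10). Slc3a2, the heavy chain that carries the cystine transporter to the membrane, had a log2 fold change of 0.40 (SE 0.12, edgeR adjusted p = 0.141) and Gss, glutathione synthetase, 0.26 (SE 0.13). Of 7 NADPH and pentose phosphate genes 2 were positive (median -0.07), Taldo1, transaldolase, at 0.22 (SE 0.12) and Idh1, the cytosolic isocitrate dehydrogenase, at 0.19 (SE 0.10). Of 16 tested regulators and partners 7 were positive (median -0.07). Dpp3, a peptidase that binds KEAP1, had -0.35 (SE 0.13) and Rbx1, the RING subunit of cullin ligases, 0.25 (SE 0.11). Of 7 heme and iron targets 4 were positive (median 0.05), with Fech, ferrochelatase, at 0.19 (SE 0.10) and Hmox2, the constitutive heme oxygenase, at 0.15 (SE 0.08). None of the genes named in these 4 lists passed in edgeR, with adjusted p between 0.141 and 0.371.

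**Figure D4:**
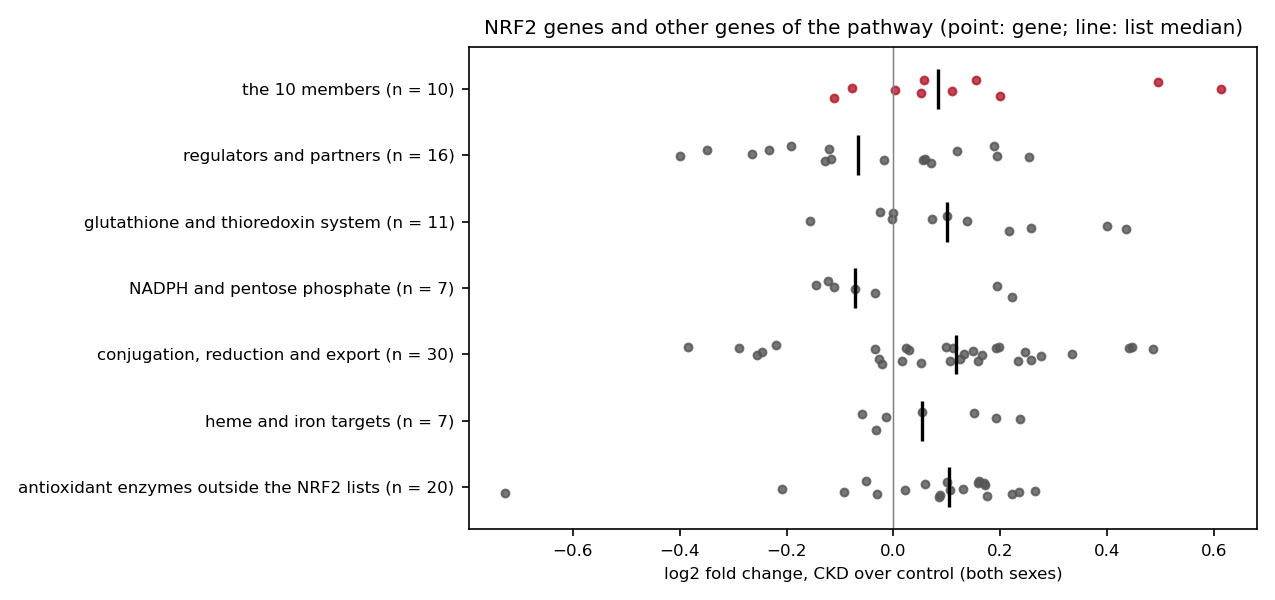
Points are log2 fold changes of CKD over control (x axis) of single genes, by list (y axis), with a line at each list's median. The members run from -0.11 to 0.61 around a median of 0.08, and the list medians lie between -0.07 and 0.12.

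Nqo1 is also a target of the aryl hydrocarbon receptor. Of 7 listed targets of that receptor 4 were tested, 3 with positive and 1 with a negative fold change (median 0.25 log2 units), and 0 passed. Over all tested genes 50.2% were positive, with a median of 0.00. The 4 include Tiparp, an ADP-ribosyltransferase that feeds back on the receptor, at 0.18 (SE 0.12) and Cyp1b1, a cytochrome P450, at 0.32 (SE 0.30). Also tested were Ahrr, at -0.02 (SE 0.14), and Cyp1a1, at 0.33 (SE 0.46) with a mean of 1.62 CPM, both named after their values were seen. The part of this receptor in the Nqo1 values was not tested.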

How the data were processed

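The authors deposited raw read counts per Ensembl gene for 16 ventricle libraries, as whole numbers without normalization. STAR 2.6.1d, Subread 1.6.3 with featureCounts, DESeq2 1.30.1, FastQC, MultiQC and the build mm10 are named in the submitters' processing notes. No source used here gives the annotation release, the strand setting or how reads with several matches were counted. Symbols, coordinates, exon lengths and GC content came from GENCODE M21 (GRCm38), which matched 33367 of 33399 IDs, and promoter windows from RefSeq (GRCm38.p6).

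All genes were fitted with edgeR 4.0.16 in R 4.3.3 (filterByExpr with minimum count 10 and minimum total 15, TMM scaling, quasi-likelihood F test, Benjamini-Hochberg adjustment over 16400 genes, threshold 0.05, two-sided). CKD was compared with control with sex as a covariate, and the other contrasts came from a fit with the 4 groups as levels. CPM values are TMM-scaled. Log2 CPM for correlations used a prior count of 2, with 100000 permutations within groups. The edgeR fit was tested on simulated data.

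Groups come from the sample titles. Replicate numbers, given in accession order, are names without pairing. The edgeR p-values set a difference against the spread between mice, estimated with information shared across genes. Those of correlations came from permutations within groups. Hmox1 had the lowest member counts, from 35 per library, and so the largest counting error. Members, lists and tests were chosen with earlier results of these data known. The text names all 10 members, up to 4 genes past the threshold per list or otherwise the 2 with the lowest p, and the 5 genes most like Nqo1. Sod3, Ahrr and Cyp1a1 were named after their values were seen. Alternatives were DESeq2 1.42.0, limma-voom with quality weights per sample (limma 3.58.1), scaling by RLE or by the upper quartile, no filter or 1 CPM in 8 libraries, title code number 6 against others as a factor or a subset, removal of each library's GC trend (lowess, span 0.3), no sex term, and libraries left out.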

Additional observations from a re-analysis of the deposited data

Results flagged for a closer look

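Within each group of 4 mice, each member was checked for 1 mouse far from the other 3, by Dixon's ratio at its 95% critical value. Of 40 gene and group combinations 3 were past it, and chance alone flags about 1 in 20. Hmox1 in male control 3 was 5.65 CPM, against 6.50 to 6.63 CPM in the other male controls. Txnrd1 in the same mouse was 50.7 CPM, against 67.5 to 69.8 CPM in the others. Gclm in female control 4 was 26.7 CPM, against 15.8 to 17.5 CPM in the other female controls. These mice are all controls, and no member had a CKD effect that differed between the sexes past the threshold.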

How the results depend on the processing

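Nqo1 was the 1 member past the threshold in CKD against control with RLE or upper-quartile scaling, either filter, the title code as a factor, the GC trend removed, no sex term, and male CKD 4 and female control 2 left out together. The count was 2 with DESeq2 and 2 with limma-voom (Nqo1 and Gsta3), 0 among title code 6 alone and 0 among the other codes. It ran from 0 to 1 with single libraries left out, and Nqo1 passed in 8 of those 16 fits. The Nqo1 log2 fold change ran from 0.51 to 0.70 over all alternatives and was positive in each. For female against male in CKD mice the count was 1 with limma-voom (Keap1) and 0 otherwise, and for the other NRF2 genes it was 1 with DESeq2 (Gstm2) and 0 otherwise. The cause of these changes was not tested, and the subsets also held fewer libraries. Of 280 alternative estimates for CKD against control, over all members, 26 had the opposite sign to the main fit, and none of these passed. They came from Gclm, Gstm1, Hmox1, Keap1 and Srxn1. Most were of Srxn1, whose main log2 fold change was 0.00. No paired analysis was possible because the labels give no replicate numbers that groups share. Depth limits Hmox1 and Gsta3 most, with as few as 35 and 72 counts per library.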

Other observations

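Antioxidant enzymes outside the NRF2 lists were read from a list of 20 genes, all tested. Of these 15 had positive and 5 negative fold changes in CKD against control, with a median of 0.10 log2 units, and 0 passed in edgeR. Over all tested genes 50.2% were positive. At an unadjusted p under 0.05 there were 3 higher and 1 lower, 20% of the list, against 15.4% of all tested genes. Prdx3, the mitochondrial peroxiredoxin, averaged 423 ± 41.2 CPM with CKD and 379 ± 21.2 CPM in controls (SD, n = 8 each), with a log2 fold change of 0.16 (SE 0.07, edgeR adjusted p = 0.282). Prdx2, a cytosolic peroxiredoxin abundant in red cells, averaged 405 ± 99.9 CPM with CKD and 337 ± 29.5 CPM in controls, with 0.26 (SE 0.12, edgeR adjusted p = 0.315). The 1 lower gene was Sod3, the extracellular superoxide dismutase, named after its values were seen, with 9.53 ± 4.32 CPM with CKD and 15.8 ± 8.91 CPM in controls (log2 fold change -0.73, SE 0.34, edgeR adjusted p = 0.322).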
